A study of Mus musculus with 12 samples.

Results

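The miRNAs described here are the 39 mouse names on the array that start with miR-669, miR-467, miR-466 or miR-297, star names included, of 611 mouse names in all. They were chosen by name alone: 12 are miR-669 names, 10 are miR-467, 14 are miR-466 and 3 are miR-297. The arrays measured mature miRNAs in mouse embryonic fibroblasts of C57BL/6 background that were wild type for ATF4 (ATF4WT, here WT) or lacked it (ATF4KO, here KO). Cells of each genotype were untreated or held in 2 ug/mL tunicamycin for 12 h or for 24 h, which gave 6 groups of 2 arrays, numbered replicate 1 and 2 and stated to come from independent experiments. Age, sex, the number of embryos and the kind of ATF4 allele were not given in the sources used here, and no ATF4 messenger RNA was measured, so the genotype labels could not be checked.

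Tunicamycin blocks the attachment of N-linked sugars to new proteins in the endoplasmic reticulum, and ATF4 is a transcription factor made when that stress slows translation. Most genes of these 4 families are tandem copies of a rodent-specific repeat inside an intron of Sfmbt2, a Polycomb-related gene that is imprinted and expressed mainly from the paternal copy in extraembryonic tissue. Many of the hairpins carry runs of alternating G and U on 1 strand and of C and A on the other, so their mature strands are alike and a probe for 1 name can capture another. The names are therefore not independent measurements.

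The label Sfmbt2 held for most names but not for all. In the RefSeq gene table (GRCm38.p6), 37 of the 39 names matched at least 1 miRNA gene. For 29 of them every matched gene lay inside Sfmbt2, on chromosome 2, and for 3 (miR-297a* and both strands of miR-466f) some copies lay inside and some elsewhere. The remaining 5 names, miR-466i, miR-466j, miR-466k, miR-467f and miR-467g, had their matched gene on chromosomes 13, 10, 3, 11 and 5.

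The RefSeq miRNA table (GRCm38.p6) held 162 of the 611 mouse names and 4 of the 39 family names, which are shown because they carry both kinds of repeat and because 2 of them, miR-467f and miR-467g, were among those that differed most between replicate numbers. The next is the 3p strand of miR-466i; the array name gives no strand, so whether its probes read that strand was not tested. The 3 sequences after it belong to miRNAs outside the families that carry the same repeats. The seed, bases 2 to 8, is in capitals, and the 8 sequences have 8 different seeds.
miR-466j (chr10:60960802-60960824, plus strand): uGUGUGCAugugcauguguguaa
miR-466k (chr3:85467396-85467418, plus strand): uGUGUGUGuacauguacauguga
miR-467f (chr11:69635419-69635439, minus strand): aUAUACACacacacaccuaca
miR-467g (chr5:34732872-34732892, minus strand): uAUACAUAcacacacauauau
miR-466i-3p (chr13:17747552-17747573, plus strand): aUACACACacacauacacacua
miR-574-3p (chr5:64970364-64970385, plus strand): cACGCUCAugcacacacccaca
miR-574-5p (chr5:64970328-64970350, plus strand): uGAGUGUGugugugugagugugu
miR-1187 (chr5:82798964-82798986, minus strand): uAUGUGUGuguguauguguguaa
The strands of miR-466j and miR-466k hold the letters UGUGU, and those of miR-467f, miR-467g and miR-466i-3p hold ACACA. The letters were searched in the mature strand only. Of the 1679 mature sequences in that table, 61 (3.63%) hold UGUGU and 29 (1.73%) hold ACACA.

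On these arrays, the signal of the 4 families split the tunicamycin arrays by replicate number. They made up 1.44% to 2.18% of all mouse miRNA signal on the 4 untreated arrays and 1.15% to 2.55% on the 4 tunicamycin arrays of replicate 1. On the tunicamycin arrays of replicate 2 the share was 18.6% in WT at 12 h, 16.0% in KO at 12 h, 8.15% in WT at 24 h and 8.26% in KO at 24 h. The 4 arrays of replicate 2 were thus above every other array, in both genotypes and at both times, and the number of families' names well above background followed the same split: 12 to 14 untreated, 7 to 13 on replicate 1 and 20 to 25 on replicate 2.

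**Figure D1:**
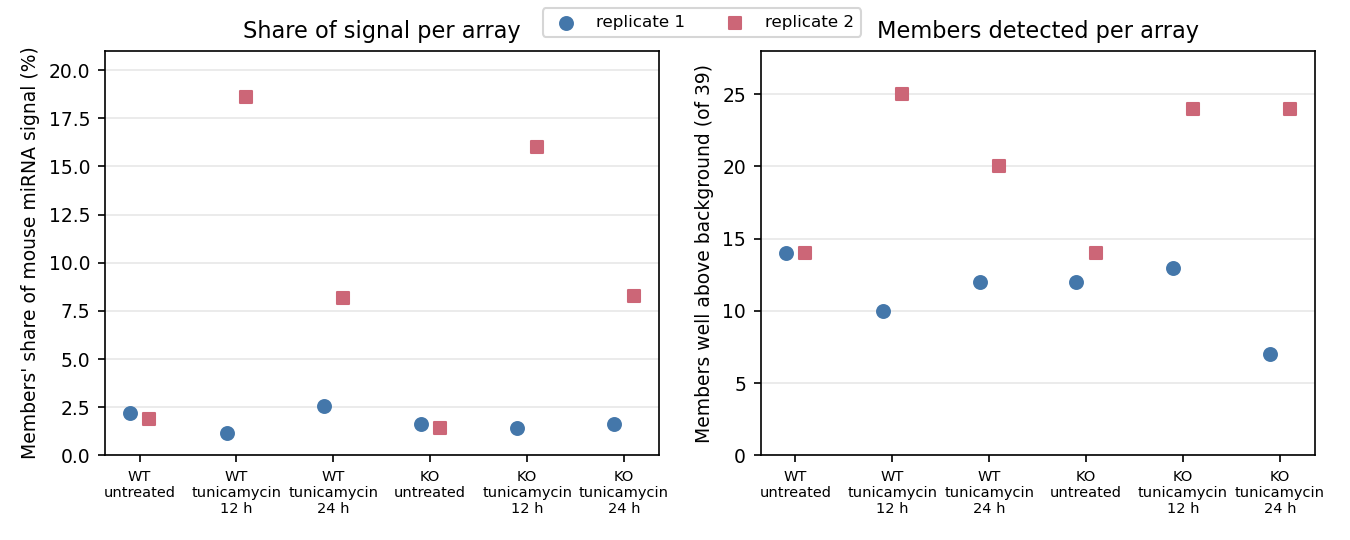
The left panel plots, for each of the 12 arrays, the percentage of mouse miRNA signal held by the 39 names; the right panel plots how many of the 39 were well above background. Circles are replicate 1 and squares replicate 2; the 4 tunicamycin squares lie at 8.15% to 18.6%, and the other 8 points at 1.15% to 2.55%.

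The arrays' layout bears on every value below. The 4 untreated arrays shared slide 1 and the 8 tunicamycin arrays slide 2. The untreated arrays of replicate 1 were scanned together (scan 1) and those of replicate 2 together at another time (scan 2). No scan held both untreated and tunicamycin arrays, so the effects of slide, scan and treatment cannot be told apart. The tunicamycin arrays of replicate 1 were scanned together (scan 3) and those of replicate 2 together at another time (scan 4), so replicate experiment and scan cannot be told apart either. On both slides the WT arrays lay in row 1 and the KO arrays in row 2, so genotype and row cannot be told apart in any comparison of KO with WT. The array's 75th percentile, by which signals were scaled, ranged from 203.5 to 791.2 intensity units, and 92 to 164 mouse miRNAs were well above background. On untreated arrays these were 555.7 to 791.2 units and 122 to 148 miRNAs. On tunicamycin arrays they were 203.5 to 515.4 and 92 to 134 for replicate 1, and 354.1 to 570.1 and 133 to 164 for replicate 2. The pair differed most in KO at 24 h, with 203.5 and 92 on replicate 1 and 566.3 and 164 on replicate 2. In KO at 12 h replicate 1 was the brighter, with 515.4 and 134 against 417.9 and 133. The part of array brightness in the split was not tested. Of 10 fibroblast miRNAs, 9 were seen and 8 were well above background on all 12 arrays. Of 10 miRNAs of placenta and pluripotent cells, the cells best known for this cluster, only miR-294 was seen on any array; the list's summed signal was 13.6 to 35.9 units untreated, 25.9 to 42.7 on replicate 1 and 19.0 to 83.4 on replicate 2 of tunicamycin, and the list's part in the result was not tested.

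All 4 families took part in the split. The miR-466 names held 0.466% to 0.765% of mouse signal untreated and 0.323% to 0.916% on the tunicamycin arrays of replicate 1, against 3.50% to 8.06% on replicate 2. For the miR-467 names the same 3 ranges were 0.431% to 0.631%, 0.299% to 0.531% and 2.58% to 5.64%. The miR-669 names held 0.522% to 0.762%, 0.511% to 1.08% and 1.81% to 4.41%. The only miR-297 name seen was miR-297a*, and its family held 0.0186% to 0.0239%, 0.0200% to 0.0336% and 0.170% to 0.471%.

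Of the 39 names, 27 were well above background on at least 1 array, 7 on all 12 and 12 on none. The 12 that were never seen were miR-297b-5p, miR-297c, miR-466a-5p, miR-466b-5p, miR-466d-5p, miR-466k, miR-466l, miR-467d, miR-669g, miR-669h-5p, miR-669j and miR-669k. Another 11 were seen only on tunicamycin arrays of replicate 2, and 6 of these on all 4 of them: miR-297a*, miR-467b*, miR-467e*, miR-467g, miR-669e and miR-669h-3p. Outside the families, 31 of 179 seen names were seen only there, 8 of them on all 4. At the level of probes, 45 of the families' 106 were well above background on all 4 of these arrays, and 22 of the 45 were so on 0 of the 4 tunicamycin arrays of replicate 1. Probes outside the families were not counted in this way, so the probe counts cannot be read as particular to the families. Mouse miRNAs well above background numbered 133 to 164 on these arrays and 92 to 134 on the tunicamycin arrays of replicate 1.

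**Figure D2:**
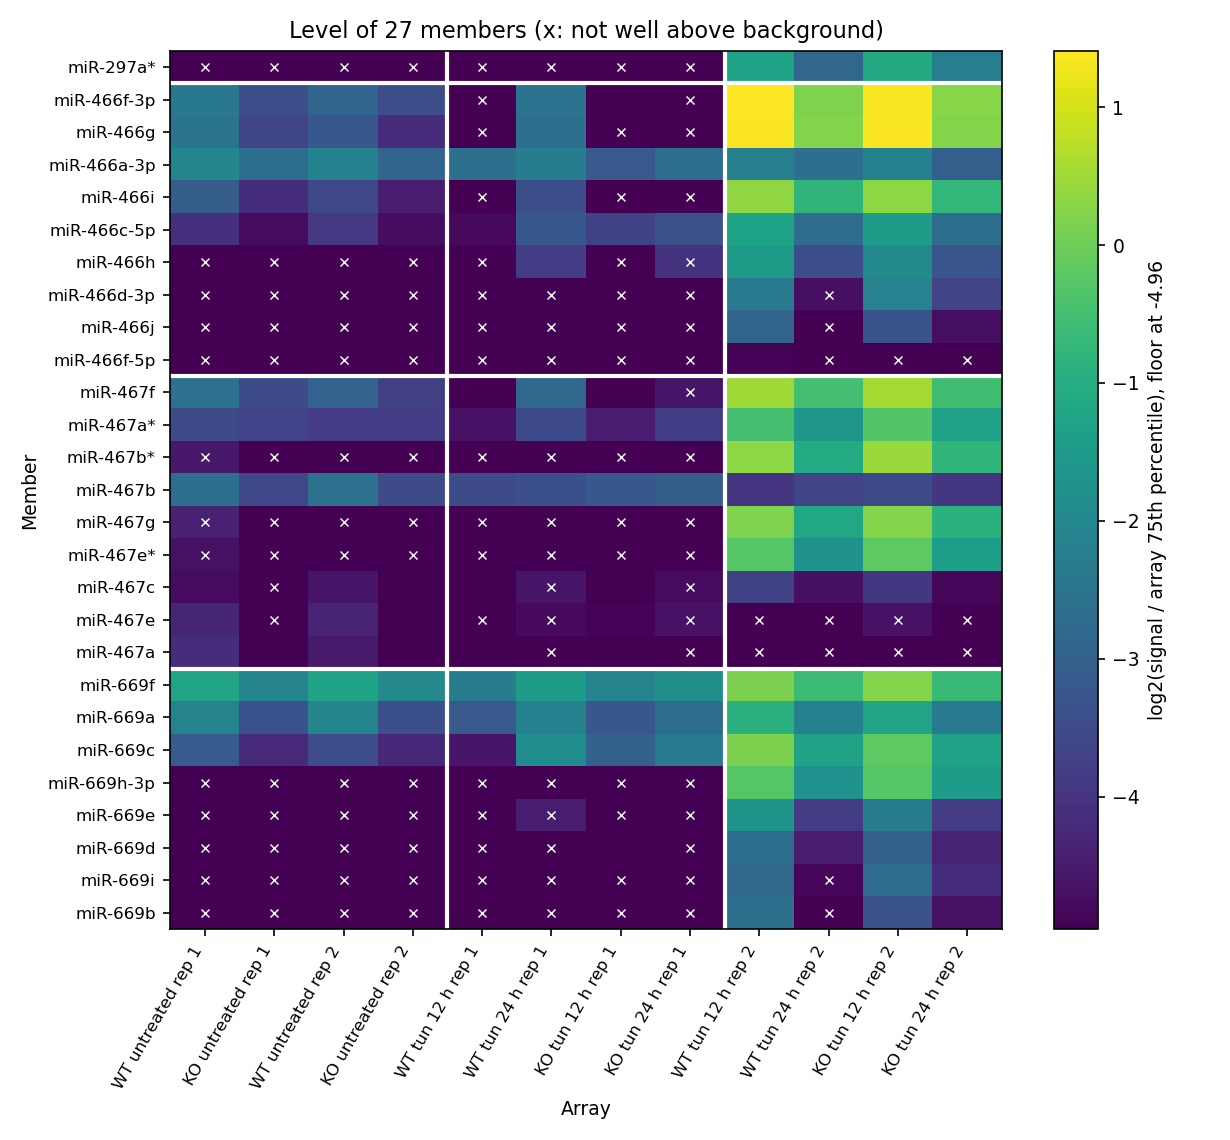
Rows are the 27 names well above background on any array, grouped by family; columns are the 12 arrays (untreated, then tunicamycin replicate 1, then tunicamycin replicate 2), and colour is log2 of signal over the array's 75th percentile, with a floor at -4.96. Crosses mark cells not well above background; the last 4 columns hold the brightest cells of most rows, while miR-467a and miR-467e are at or near the floor there.

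Levels are given below as log2 of a miRNA's signal over its array's 75th percentile, each pair as replicate 1 then replicate 2. A level of -4.96 is the floor, set near the dimmest signals well above background, so a difference from it depends on where the floor lies. Levels of different miRNAs are not compared, since probes differ in brightness.

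The 4 names with the widest split among those given array by array were miR-466f-3p, miR-466g, miR-466i and miR-467f. The level of miR-466f-3p was -2.38 and -2.88 in untreated WT and -3.43 and -3.46 in untreated KO. In tunicamycin it was -4.96 and 1.41 in WT at 12 h, -2.53 and 0.18 in WT at 24 h, -4.96 and 1.34 in KO at 12 h, and -4.96 and 0.27 in KO at 24 h. Replicate 1 was thus at or near the floor, or near the untreated level in WT at 24 h, while replicate 2 was above every untreated array in each group.

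The same order held for miR-466g, whose untreated levels were -2.50 and -3.23 in WT and -3.62 and -4.14 in KO. Its tunicamycin levels were -4.96 and 1.37 in WT at 12 h, -2.63 and 0.22 in WT at 24 h, -4.96 and 1.38 in KO at 12 h, and -4.96 and 0.24 in KO at 24 h. Array by array, replicate 2 was again the higher of each tunicamycin pair and above all 4 untreated arrays.

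For miR-466i the untreated levels were -3.09 and -3.59 in WT and -4.13 and -4.46 in KO. Under tunicamycin they were -4.96 and 0.36 in WT at 12 h, -3.44 and -0.79 in WT at 24 h, -4.96 and 0.33 in KO at 12 h, and -4.96 and -0.74 in KO at 24 h. This name, whose gene is on chromosome 13, followed miR-466g, whose gene lies inside Sfmbt2. It also followed miR-466f-3p, which has gene copies inside Sfmbt2 and on chromosome 13. So did miR-467f, whose gene is on chromosome 11 and whose CA-repeat sequence is shown above. Its untreated levels were -2.56 and -2.95 in WT and -3.48 and -3.76 in KO, and its tunicamycin levels -4.96 and 0.51 in WT at 12 h, -2.81 and -0.50 in WT at 24 h, -4.96 and 0.54 in KO at 12 h, and -4.61 and -0.54 in KO at 24 h.

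The 3 miR-669 names given array by array had smaller splits. For miR-669f, untreated levels were -1.25 and -1.30 in WT and -2.06 and -1.97 in KO, and tunicamycin levels -2.26 and 0.15 in WT at 12 h, -1.50 and -0.63 in WT at 24 h, -2.10 and 0.23 in KO at 12 h, and -1.78 and -0.66 in KO at 24 h. Every replicate 2 value under tunicamycin was above the 4 untreated values, and every replicate 1 value lay below the untreated WT pair.

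At 24 h, miR-669a hardly split. It was at -2.10 and -2.07 in untreated WT, -3.35 and -3.40 in untreated KO, -3.17 and -0.91 in WT at 12 h, -2.15 and -2.15 in WT at 24 h, -3.24 and -1.24 in KO at 12 h, and -2.72 and -2.37 in KO at 24 h. The split of miR-669c was also larger at 12 h than at 24 h. It was at -3.12 and -3.46 in untreated WT, -4.17 and -4.26 in untreated KO, -4.57 and 0.15 in WT at 12 h, -1.85 and -1.28 in WT at 24 h, -2.98 and -0.18 in KO at 12 h, and -2.32 and -1.30 in KO at 24 h. In 3 of its 4 tunicamycin groups both replicates of miR-669c were above both untreated arrays of the same genotype; in WT at 12 h they lay on either side.

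The exception among the names given array by array for their level was miR-466a-3p. Its levels were -2.04 and -2.16 in untreated WT, -2.67 and -2.87 in untreated KO, -2.61 and -2.18 in WT at 12 h, -2.28 and -2.61 in WT at 24 h, -3.19 and -2.16 in KO at 12 h, and -2.66 and -3.02 in KO at 24 h. It stayed within -3.19 to -2.04 on all 12 arrays, and its replicates did not split in 1 direction.

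A name entered the tests when some group had both of its arrays well above background. Over the 16 such names, replicate 2 minus replicate 1 had a median of -0.08 in untreated WT and -0.02 in untreated KO. Under tunicamycin the median was 2.93 in WT at 12 h, 2.30 in KO at 12 h, 0.52 in WT at 24 h and 0.74 in KO at 24 h. The 129 other tested miRNAs had medians between -0.21 and 0.00 in all 6 groups. The pooled SD within a group told the same: for the 16 names it was 0.23 and 0.13 in untreated WT and KO, but 2.63 and 2.46 at 12 h and 1.02 and 1.77 at 24 h, and for the other miRNAs 0.14 and 0.13, 0.91 and 0.80, and 0.41 and 0.80.

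**Figure D3:**
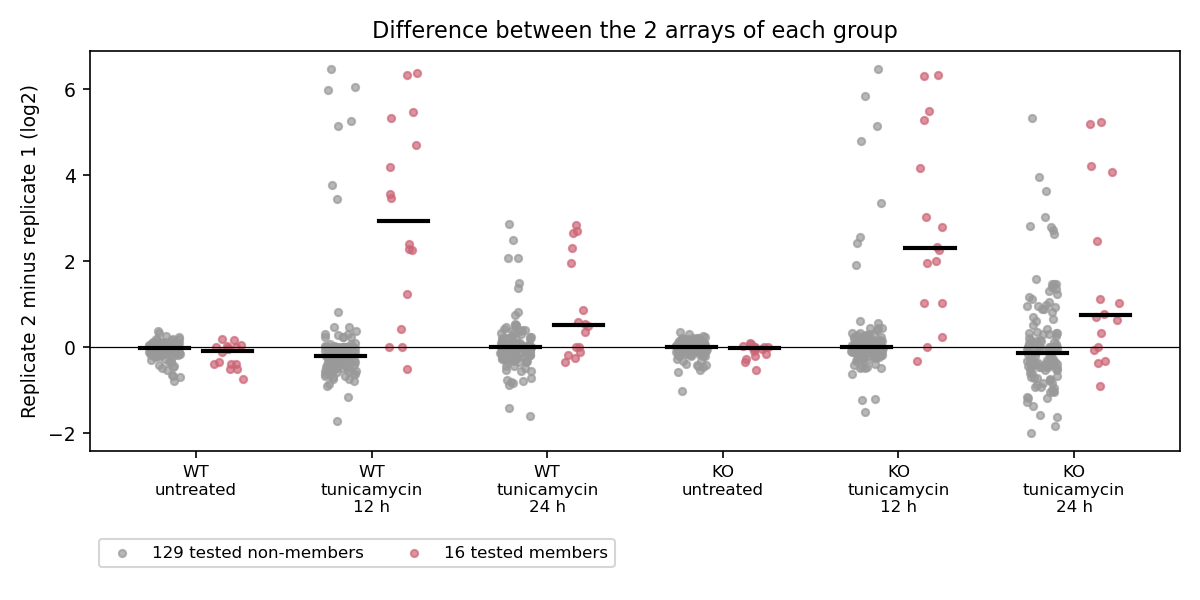
Each point is 1 miRNA and shows replicate 2 minus replicate 1 on the log2 scale within a group; red points are the 16 tested names of the 4 families, grey points the 129 other tested miRNAs, and bars are medians. In the untreated groups both sets lie around 0, and in the tunicamycin groups the red medians are 0.52 to 2.93 while the grey medians are -0.21 to 0.00.

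Replicate 2 exceeded replicate 1 by more than 1 on the log2 scale in all 4 tunicamycin groups for 5 of the 16 tested names (31.2%), where 6.21% of all 145 tested miRNAs did so. Among names seen on any array it was 10 of 27 (37.0%), where 10.2% of the 206 seen mouse miRNAs did so. A name had to be bright on some array to count as seen, and for many of them those were the arrays of replicate 2, so these shares are descriptions. The 10 were miR-297a*, miR-466f-3p, miR-466g, miR-466i, miR-467a*, miR-467b*, miR-467e*, miR-467f, miR-467g and miR-669h-3p, a set defined after its values were seen. Together they held 71.8% to 74.3% of the families' signal on the tunicamycin arrays of replicate 2, against 29.9% to 37.9% untreated and 11.4% to 31.1% on replicate 1.

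The count of 5 was 5 to 7 under the other scalings, measures and floor that were tried, but 0 with normexp background correction, which changed the spot signal, the background and an offset of 50 together; which of these had a part was not tested. There the 16 names' medians were 1.09 in WT at 12 h, 1.03 in KO at 12 h, 1.08 in WT at 24 h and -0.47 in KO at 24 h, beside -0.14, 0.14, 0.87 and -0.65 for the other miRNAs. With spots of outlying local background left out of that fit, the median in WT at 24 h was 0.00 and the other 3 were 1.06, 1.03 and -0.47.

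The 2 strands of a hairpin did not behave alike. The star strands miR-467a*, miR-467b* and miR-467e* were higher on replicate 2 by 1.96 to 4.20, 3.89 to 5.39 and 3.27 to 4.77 over the 4 tunicamycin groups. Their partners miR-467a, miR-467b and miR-467e differed by 0.00, by -0.89 to -0.25 and by -0.31 to 0.25. Of these partners, miR-467a was at the floor on every tunicamycin array and miR-467e at or near it, so their differences are limited by the floor. The partners are cut from the same hairpin as the star strands. For miR-467b, which was clear of the floor, the split thus did not run over the whole hairpin as the probes read it. For miR-466f the 3p strand differed by 2.70 to 6.37 and the 5p strand, at or near the floor on all arrays, by 0.00 to 0.07. For miR-669h the 3p strand differed by 3.21 to 4.69 while the 5p strand was not seen. The 3p strand of miR-466d differed by 0.26 to 2.82, its 5p strand not being seen either.

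The other seen names lay between these. The differences were 0.54 to 3.56 for miR-466c-5p, 0.36 to 3.46 for miR-466h and 0.00 to 2.05 for miR-466j, whose sequence is a GU repeat, over the 4 tunicamycin groups. They were -0.11 to 1.23 for miR-467c, 0.00 to 2.33 for miR-669b, 0.49 to 2.29 for miR-669d, 0.62 to 3.29 for miR-669e and 0.11 to 2.22 for miR-669i. In each of these the largest difference was at 12 h and the smallest at 24 h. The CA-repeat miR-467g differed by 3.82 to 5.19.

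Outside the families, 5 tested miRNAs hold UGUGU or ACACA in the RefSeq sequences, and they behaved in different ways. The level of miR-574-3p, an ACACA strand from chromosome 5, was -2.70 and -3.37 in untreated WT and -3.71 and -4.01 in untreated KO. Under tunicamycin it was -4.96 and 1.51 in WT at 12 h, -2.45 and 0.41 in WT at 24 h, -4.96 and 1.51 in KO at 12 h, and -4.96 and 0.38 in KO at 24 h. As with miR-466f-3p, replicate 2 was the higher of each tunicamycin pair and above all 4 untreated arrays. Its other strand, the GU-repeat miR-574-5p, was higher on replicate 2 by 3.44 and 1.92 at 12 h in WT and KO and by 0.41 and 0.60 at 24 h. Its levels were -1.36 and -1.69 in untreated WT, -2.01 and -2.20 in untreated KO, -2.76 and 0.68 in WT at 12 h, -1.02 and -0.61 in WT at 24 h, -1.51 and 0.41 in KO at 12 h, and -1.28 and -0.68 in KO at 24 h.

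The GU-repeat miR-1187 had differences of 3.77 and 2.43 at 12 h in WT and KO and of 0.53 and 0.88 at 24 h. Its levels were -2.13 and -2.55 in untreated WT, -2.95 and -3.41 in untreated KO, -3.56 and 0.21 in WT at 12 h, -1.64 and -1.11 in WT at 24 h, -2.48 and -0.05 in KO at 12 h, and -2.00 and -1.12 in KO at 24 h. The other 2, miR-342-3p and miR-362-3p, also hold ACACA and did not show the split: their differences were -0.08, -0.52, 0.23 and -1.17, and -0.33, 0.06, -0.01 and -0.33, in WT at 12 h and 24 h and in KO at 12 h and 24 h. None of the 5 is part of the families, and whether shared letters have a part in the split was not tested.

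Within scan 4 each time and genotype had 1 array, so no test was made. The 10 names with the wide split were all higher at 12 h than at 24 h, by a median of 1.27 (1.01 to 1.58) in WT and 1.13 (1.01 to 1.21) in KO. Between genotypes at 12 h they differed by a median of 0.05 (-0.07 to 0.18, KO minus WT), and at 24 h by 0.26 (-0.03 to 0.61). For comparison, the 129 other tested miRNAs had medians of -0.21 and 0.00 for 12 h minus 24 h and of 0.07 and 0.00 for KO minus WT. Within scan 3, 5 of the same 10 names were lower at 12 h than at 24 h in WT and 2 in KO, with medians of -0.56 and 0.00, and none was higher. On those 12 h arrays all of the names but miR-467a* were at the floor, so they could not be higher at 12 h than at 24 h. Of the 16 tested names, 14 were lower in WT and 11 in KO, with medians of -1.07 and -0.28, beside 61 and 88 of the 129 other tested miRNAs, with medians of 0.00 and -0.18.

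The comparison of tunicamycin with untreated cells asks whether the stress changed these miRNAs in WT cells. At 12 h in WT, miR-467a, miR-467b and miR-467e fell and none of the 16 tested names rose. These 3 calls stand beside 31.0% of all 145 tested miRNAs called in that comparison (limma, Benjamini-Hochberg adjusted p below 0.05). Over the 16 names the median difference was 0.69 with 12 above 0, and over all tested miRNAs -0.32, but the names' median hides the 2 replicates: it was -0.93 within replicate 1, with 14 names lower, and 2.46 within replicate 2, with 12 names higher. Over all tested miRNAs it was -0.45 within replicate 1 and -0.48 within replicate 2. Of the 16, miR-466h and miR-669d entered the tests through a tunicamycin group only and were at the floor on every untreated array. Their differences from untreated, here and below, could therefore not be under 0. The median standard error was 1.06 over the 16 names and 0.24 over all tested miRNAs. The difference for miR-466f-3p was 0.85 ± 2.86 (SE, 95% interval -5.91 to 7.62), and for miR-669f it was 0.22 ± 0.97 (-2.08 to 2.52).

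The 3 called names were not higher on replicate 2 by more than 0.25 in any tunicamycin group. The level of miR-467a was -4.12 and -4.51 in untreated WT and at the floor of -4.96 on the other 10 arrays. That of miR-467e was -4.31 and -4.33 in untreated WT, -4.96 and -4.96 in untreated KO and WT at 12 h, -4.79 and -4.96 in WT at 24 h, -4.89 and -4.65 in KO at 12 h, and -4.65 and -4.96 in KO at 24 h. Both were therefore barely above the floor in untreated WT and at or near it elsewhere. A level at the floor does not mean unseen: miR-467a was well above background on both untreated KO arrays. Its signals before scaling were 20.1 and 24.4 in untreated KO, beside 33.2 and 24.4 in untreated WT. The 75th percentiles that divided them were 709.5 and 791.2 in KO and 577.0 and 555.7 in WT. That of miR-467b was well above background on all 12 arrays, at -2.64 and -2.58 in untreated WT, -3.50 and -4.01 in WT at 12 h, -3.41 and -3.66 in WT at 24 h, -3.58 and -3.50 in untreated KO, -3.21 and -3.52 in KO at 12 h, and -3.07 and -3.96 in KO at 24 h. The untreated WT pair of miR-467b was above all the other 10 arrays.

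At 12 h in WT, miR-467b fell by 1.14 ± 0.30 (limma, SE, adjusted p = 0.0304), miR-467a fell by 0.64 ± 0.12 (adjusted p = 0.00833) and miR-467e fell by 0.64 ± 0.13 (adjusted p = 0.011). As miR-467e was not well above background on either treated array, its fold is a bound, at least 1.52-fold lower, measured against the lowest signal above background on each array. Untreated WT was the only group with both arrays of miR-467e well above background, so this name entered the tests through that group alone. Every comparison that called miR-467e involves untreated WT, so its calls, here and below, are in part set by the filter. The p-values of all tests measure the spread between these arrays only. Pairs of arrays tied at the floor add no spread, which lowers the standard errors of miR-467a and miR-467e. In WT at 12 h with a floor 4 times lower, limma's adjusted p was 0.0621 (miR-467a), 0.0732 (miR-467e) and 0.0386 (miR-467b). The 3 calls became 1 without WT untreated replicate 1 or without WT 12 h replicate 2, and 0 under normexp, Agilent's total gene signal, the deposited values, median or quantile scaling and the 75th percentile over all miRNAs.

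At 24 h in WT, miR-467a fell by 0.64 ± 0.12 (limma, adjusted p = 0.0135) and miR-467e fell by 0.56 ± 0.13 (adjusted p = 0.0282), each at least 1.18-fold lower as neither was well above background in the treated pair. These 2 of 16 stand beside 15.2% of all tested miRNAs. For miR-467b the difference was -0.92 ± 0.30 (adjusted p = 0.0831). The median of the 16 was 0.64, with -0.14 within replicate 1 and 0.94 within replicate 2. For all tested miRNAs it was -0.17, with -0.25 within replicate 1 and -0.17 within replicate 2. Without either WT 24 h array the count was 0, and without any 1 of the 4 untreated arrays it was 1.

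In KO cells, limma called 0 of the 16 names at 12 h, where it called 0.690% of all tested miRNAs, and 0 at 24 h, where it called 2.07%; at an unadjusted p below 0.05 the counts were also 0 and 0. The medians of the names were 1.26 at 12 h and 0.94 at 24 h, beside 0.06 and 0.20 over all tested miRNAs, and turned to -0.31 and -0.28 under normexp, but were 0.80 and 0.81 under normexp without spots of outlying local background. Within replicate 1 the names' medians were 0.00 and 0.09, beside 0.00 and 0.10 over all tested miRNAs. Within replicate 2 they were 2.62 and 1.51, beside 0.06 and 0.03. The difference for miR-669c at 24 h was 2.41 ± 1.50 (95% interval -1.14 to 5.95), and that for miR-466g at 12 h was 2.09 ± 2.88 (-4.71 to 8.88), so changes of several-fold either way lie within the error.

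**Figure D4:**
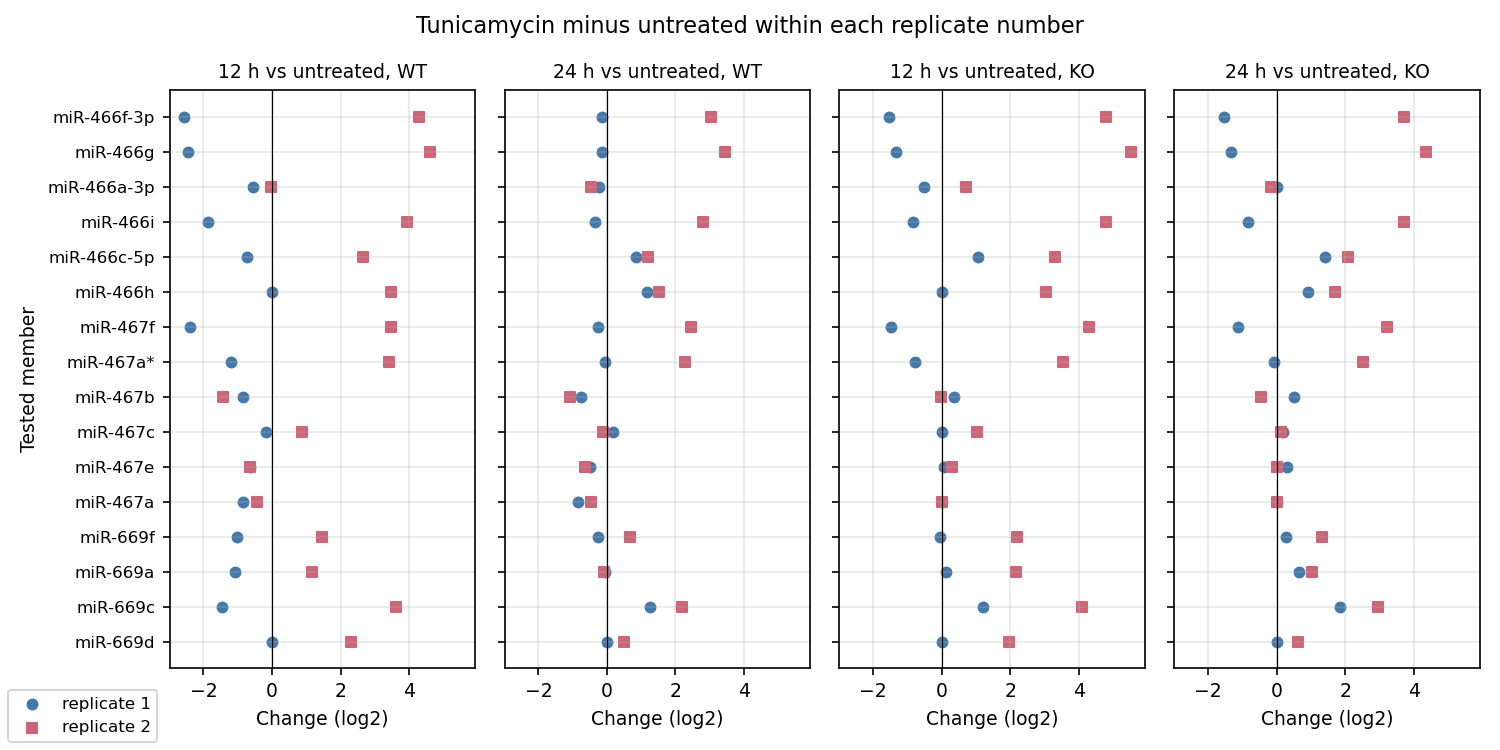
For each of the 16 tested names, the change from untreated to tunicamycin on the log2 scale is drawn within replicate 1 (circles) and within replicate 2 (squares), in 4 panels for time and genotype. The squares of most names lie to the right of their circles, while those of miR-467a and miR-467e lie within 0.39 of them in every panel.

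When the tunicamycin arrays of 1 replicate number were set against all 4 untreated arrays, a choice made after seeing the data, the calls in WT at 12 h were mostly lower with replicate 1 and mostly higher with replicate 2; in the other 3 comparisons higher calls outnumbered lower ones with either. Each treated group then had 1 array, assumed to vary like the untreated arrays, and limma's spread came from those alone. With replicate 1, 0 names were called higher and 11 lower in WT at 12 h, 3 and 2 in WT at 24 h, 3 and 2 in KO at 12 h, and 6 and 1 in KO at 24 h, where 57.2%, 51.7%, 37.2% and 37.2% of all tested miRNAs were called. With replicate 2, 12 were called higher and 2 lower in WT at 12 h, 10 and 3 in WT at 24 h, 14 and 0 in KO at 12 h, and 11 and 1 in KO at 24 h, where 66.2%, 61.4%, 42.1% and 56.6% were called.

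The comparison of KO with WT cells asks whether ATF4 loss went with other levels. In untreated cells, where replicates were close, 14 of the 16 names were below 0 and 0 above, with a median of -0.75 beside -0.49 over all tested miRNAs, which was -0.86 to -0.23 for the names under the other settings but 0.92 under normexp, and -0.25 under normexp without spots of outlying local background. The names' median was -0.82 within replicate 1 and -0.69 within replicate 2, beside -0.51 and -0.46 over all tested miRNAs. Of the 16, limma called miR-467a, which was lower by 0.64 ± 0.12 (log2 difference -0.64, adjusted p = 0.0098), and miR-467e, with a difference of -0.64 ± 0.13 (adjusted p = 0.011), where it called 32.4% of all tested miRNAs. The difference for miR-467b was -0.93 ± 0.30 (adjusted p = 0.0515), and for miR-669a it was -1.29 ± 0.81 (adjusted p = 0.266). The standard errors take in the spread of all 6 groups, so the wide split under tunicamycin enters the errors of the untreated comparison too. The 2 calls became 1 without either untreated WT array and 0 without either untreated KO array.

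Under tunicamycin the genotypes gave no called name among the 16. Limma called 0 at 12 h, where 24.8% of all tested miRNAs were called, and 0 at 24 h, where 15.2% were, with 0 and 0 at an unadjusted p below 0.05. The medians were 0.00 and -0.16, beside 0.05 and 0.00 over all tested miRNAs. The interval of the difference at 12 h was -6.79 to 6.80 for miR-466g and -2.17 to 2.42 for miR-669f, so these tests do not show that the genotypes are alike. The median at 12 h was -1.33 without WT replicate 1 and 1.42 without WT replicate 2, and 1.30 and -1.09 without KO replicate 1 and 2, since the lone array left on 1 side then decided it. The median at 24 h ranged from -0.49 to 0.33 when each array was left out.

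The response of KO minus the response of WT was tested as an interaction. At 12 h, 2 of the 16 names were called, both higher: miR-467a by 0.64 ± 0.17 (limma, adjusted p = 0.0383) and miR-467e by 0.83 ± 0.18 (adjusted p = 0.0216), where 22.8% of all tested miRNAs were called. In both, the WT level fell to the floor or near it from just above it, while the KO level was at or near the floor throughout. Even so, miR-467a was well above background on both untreated KO arrays. The difference for miR-467b was 1.31 ± 0.43 (adjusted p = 0.0722). The 2 calls became 0 without either WT 12 h array, either untreated KO array or KO 12 h replicate 2, and 1 without either untreated WT array, either WT 24 h array or KO 12 h replicate 1. At 24 h limma called 0 of the 16, where it called 8.28% of all tested miRNAs, and 2 passed an unadjusted p below 0.05; the count was 1 without either untreated WT array or KO 24 h replicate 1, and 2 without KO 24 h replicate 2. The medians of the names were 0.84 at 12 h and 0.25 at 24 h, beside 0.49 and 0.34 over all tested miRNAs; the first was -0.68 and 2.14 without WT 12 h replicate 1 and 2, and 2.06 and -0.32 without KO 12 h replicate 1 and 2. Under normexp both turned, to -0.93 and -1.08, but were 0.23 and 0.29 without spots of outlying local background, and the 24 h median was also below 0 under quantile scaling (-0.11) and the 75th percentile over all miRNAs (-0.45).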

How the data were processed

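Total RNA was labelled with Cy3 and hybridised to Agilent 1-colour miRNA arrays, read with Agilent Feature Extraction 10.7.1.1 per the submitters' processing notes. Each spot holds an intensity, per the file headers, background-subtracted and not scaled between arrays, beside 0 or 1 flags made by the authors' scanner software. Values in the deposited table are log2; they matched log2 of Agilent's total gene signal within 1.16e-06, neither scaled nor centred, with blanks for undetected miRNAs, with column medians of 5.44 to 6.90.

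The families' 39 names have 106 probes and 780 spots an array, with 0 saturated spots. For each probe the processed signal was averaged over spots, and the means were summed per miRNA, with control and outlier-flagged spots left out. Scaling used each array's 75th percentile among 82 miRNAs that were well above background throughout, followed by a floor of 0.0322 and log2. That state required the flag on 50 percent or more of a probe's spots, for any probe of the miRNA. Testing took the 145 mouse miRNAs for which some group had both arrays in that state, in 1 limma 3.58.1 fit (R 4.3.3, lmFit on 6 group means, eBayes; 6 residual degrees of freedom, prior 1.03). In each of 9 comparisons, p-values were adjusted by Benjamini-Hochberg over the 145, with a threshold of 0.05. The fit was tested on simulated data that gave each miRNA the same SD in all groups and had no floor. That check therefore does not cover floored values or groups of unequal spread. Shares of signal set negative values to 0.

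Names given array by array were those past the threshold in any comparison and the 8 tested names with the highest mean level; outside the families, the 3 tested repeat-bearing miRNAs with the highest mean level. Names, lists and rules were chosen with earlier results of these data known. Alternatives covered the background correction, the measure, the scaling, the floor, the filter, replicate number and scan as blocks, and leaving out each array. The normexp alternative used median spot signals with the median local background, in place of mean spot signals, and an offset of 50. Replicate 2 minus replicate 1 correlated over the 145 miRNAs at 0.68 to 0.95 between tunicamycin groups, at 0.68 between the untreated groups and at -0.54 to -0.24 between untreated and tunicamycin groups. The number of arrays limits the precision of every value.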

Additional observations from a re-analysis of the deposited data

Results flagged for a closer look

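The test of the difference itself called 2 names for the response to tunicamycin at 12 h in KO against WT. The difference, KO response minus WT response on the log2 scale, was 0.64 for miR-467a (limma, adjusted p = 0.0383) and 0.83 for miR-467e (adjusted p = 0.0216), higher within both replicate numbers (0.84 and 0.45 for miR-467a, 0.71 and 0.94 for miR-467e). Both were at or near the floor in all groups but untreated WT, so a response of KO cells below the floor could not be seen. Untreated WT was also the only group through which miR-467e entered the tests. For miR-467a all arrays but the untreated WT pair were at the floor. Its 0.84 and 0.45 are thus only the height of that pair above the floor. With a floor 4 times lower, limma's adjusted p was 0.248 for miR-467a and 0.045 for miR-467e.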

How the results depend on the processing

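The replicate block, which treats arrays of the same number as a pair although the labels give only a number, called 3 names lower in WT at 12 h, 3 in WT at 24 h and 3 in untreated KO against WT, 3 higher in the interaction at 12 h, and 0 in the other 5 comparisons; it ended no call. Scan as a fixed block called 3 names in untreated KO against WT and 3 in the 12 h interaction and could not be fitted for tunicamycin against untreated; as a random block it called 2 in the 24 h interaction. Slide as a block was not run, since each slide holds whole groups.

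The calls of miR-467a, miR-467b and miR-467e depended on the processing. In WT at 12 h, WT at 24 h, untreated KO against WT and the 12 h interaction, 0 names were called under normexp with and without spots of outlying local background, Agilent's total gene signal, the deposited values, median and quantile scaling, and the 75th percentile over all miRNAs. A floor 4 times lower left 1, 0, 1 and 1, and the filter for all 12 arrays, which keeps 7 names, left 1, 0, 1 and 0. With no scaling, 1 was called in untreated KO against WT, 1 in the 12 h and 1 in the 24 h interaction, and 2 in KO at 24 h.

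Where they were called, the differences of these 3 names turned sign only under normexp, the total gene signal and the deposited values; the cause was not tested. Under normexp, miR-467a and miR-467e were at 0.03 and 0.04 in WT at 12 h, 1.01 and 1.04 in WT at 24 h, 1.00 and 1.04 in untreated KO against WT, and -0.96 and -0.97 in the 12 h interaction; without spots of outlying local background only those in WT at 24 h turned, to 0.35 and 0.41. Under the total gene signal, miR-467b was at 0.73 in WT at 12 h, and miR-467e at 0.18 in untreated KO against WT and -1.05 in the 12 h interaction. With the deposited values, miR-467b was at 0.51 in WT at 12 h, miR-467a at 0.27 and miR-467e at 0.52 in untreated KO against WT, and miR-467e at -1.34 in the interaction.

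The medians of the 16 names moved as follows. Untreated KO against WT was 0.92 under normexp (-0.25 without outlying spots), -0.40 with the deposited values, -0.46 under median and -0.25 under quantile scaling, -0.23 with the percentile over all miRNAs, -0.43 with no scaling, -0.86 with the lower floor and -0.27 over the 27 seen names. KO against WT at 12 h was -0.02 and -0.03 under the normexp settings, 0.25 with the total gene signal, 0.22 with the deposited values, -0.17, -0.07 and -0.17 under median, quantile and all-miRNA scaling, -0.21 with no scaling, 0.20 with the lower floor, 0.17 with the 12-array filter and -0.02 with replicate 2 alone. At 24 h it was -0.49 under normexp and -0.60 with the percentile over all miRNAs. The 12 h interaction was -0.93 and 0.23 under the normexp settings, 0.61 with the deposited values, 0.40, 0.17 and 0.07 under median, quantile and all-miRNA scaling, 0.34 with no scaling, and 1.09 and 0.26 with the 12-array and 1-array filters. The 24 h interaction was -1.08 under normexp, -0.45 with the percentile over all miRNAs, 0.68 with the 12-array filter and 0.68 with replicate 2 alone. KO at 24 h was -0.28 under normexp and 0.81 without outlying spots. Median, quantile and all-miRNA scaling and no scaling moved the median of all tested miRNAs by -0.97 to 0.49.

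With the tunicamycin arrays of replicate 1 alone, limma called 11, 5, 5 and 7 names in the 4 treatment comparisons (WT and then KO, 12 h then 24 h), 8, 2 and 6 for KO against WT untreated, at 12 h and at 24 h, and 6 and 5 in the interactions; in the last 5 comparisons it called 90, 61, 73, 69 and 66 of all 145 tested miRNAs. With replicate 2 alone the names' counts were 14, 13, 14 and 12, then 8, 5 and 3, then 6 and 7, and in the last 5 comparisons 90, 70, 55, 74 and 71 of the 145 were called.

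Leaving out each array gave 1 to 3 calls in WT at 12 h, 0 to 3 in WT at 24 h, 0 to 3 in untreated KO against WT, 0 to 3 in the 12 h interaction and 0 to 2 in the 24 h interaction. The medians ranged from -0.80 to -0.64 for untreated KO against WT, -1.33 to 1.42 at 12 h and -0.49 to 0.33 at 24 h, and from -0.68 to 2.14 and 0.08 to 1.06 for the interactions. The signal over background limits what can be seen of the 12 names never above it.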

Other observations

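Outside the 4 families, 11 of the 179 other mouse miRNAs seen on any array were higher on replicate 2 than on replicate 1 by more than 1 on the log2 scale in all 4 tunicamycin groups. They were let-7d*, miR-1196, miR-1894-5p, miR-197, miR-207, miR-328, miR-346, miR-485*, miR-574-3p, miR-764-5p and miR-877*, a set named after its values were seen. The smallest of their 4 differences was highest for miR-574-3p, miR-197, miR-1894-5p and miR-1196, at 2.86, 2.80, 2.70 and 2.50. The largest differences of these names were 6.47, 4.86, 4.49 and 5.26. Of the 11, 7 were well above background on tunicamycin arrays of replicate 2 and on no other array.

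The Dlk1-Dio3 cluster, another large imprinted miRNA cluster, has 61 names on the array, of which 6 were seen on any array and 1 was tested. The seen names were miR-127, miR-300, miR-379, miR-494, miR-299* and miR-485*. Their cluster's summed signal was 45.8 to 88.7 intensity units on the untreated arrays, 22.7 to 64.1 on the tunicamycin arrays of replicate 1 and 62.0 to 518 on those of replicate 2.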
